A study of Homo sapiens with 6 samples.

Results

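Serpins are a family of proteins that mostly inhibit serine proteases, and the plasminogen activator system is the protease cascade that several of them hold in check. The members were found by their annotated gene symbol: all genes named SERPIN with a clade letter A to I and a number, together with PLAU, PLAUR and PLAT. This gave 35 of 19090 named genes and 46 of 28264 probes, with 24 genes read by 1 probe and 11 by 2. SERPINB2 and SERPINB6 also carry such names, and they are not analysed here. The RNA came from cells labelled Hep3B, a human hepatocellular carcinoma line grown in DMEM with fetal bovine serum. It was measured on 6 single-colour arrays with the cyanine dye Cy3. The labels state that 3 arrays hold cells transfected with CCN5, a secreted matricellular protein also called WISP2. The other 3 hold cells given a vector, called GFP in the sample titles. The labels give no time or dose for the transfection, and no array of untransfected cells was analysed.

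Urokinase (PLAU) and tissue-type plasminogen activator (PLAT) are serine proteases that cleave plasminogen into plasmin, which dissolves fibrin and degrades matrix proteins. The urokinase receptor (PLAUR) holds urokinase at the cell surface, and serpins such as SERPINE2 block the activators by forming a covalent complex in which the protease is trapped. The liver makes many serpins of blood plasma, among them antitrypsin and antithrombin, and some serpins inhibit no protease and serve as hormone carriers, as a collagen chaperone or as a signalling protein.

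Most probes of the family read slightly lower in the arrays labelled CCN5. The clearest differences lay in PLAU, SERPINF1, SERPINB3 and the brighter probes of SERPINE2 and of PLAUR, the receptor of PLAU. The log2 difference, arrays labelled CCN5 minus arrays labelled vector on the quantile-normalized scale, was below 0 for 32 of 46 probes (69.6%), against 50.8% of all probes. Its median was -0.17 over the 46 probes, with quartiles of -0.40 and 0.03, and -0.0047 over all 28264 probes. This median depended on the scaling: it was -0.067 on the deposited log2 scale, against 0.034 over all probes, and -0.023 with median centring, against 0.078. No member passed limma's adjusted p of 0.05 over all probes in either direction, where 0% of all probes passed as lower and 0% as higher. At an unadjusted limma p under 0.05, 10 member probes (21.7%) were lower, against 10.4% of all probes, and 1 (2.17%) was higher, against 8.62%. The 10 included both probes of SERPINF1 and both of SERPINE2, but only the brighter probe of PLAUR. The other PLAUR probe, also above the 50th percentile of mean signal, gave a difference of 0.04 (SE 0.13). Over the brightest probe of each of the 19090 named genes, the background shares were 11.2% lower and 8.58% higher. For 12 member probes (26.1%) every CCN5 array was below every vector array, against 14.8% of all probes, and for 1 (2.17%) every CCN5 array was above, against 11.8%. On the deposited intensities these counts were 11 (23.9%), against 11.5% of all probes, and 1 (2.17%), against 10.4%. The probes were not all the same. A SERPINB9 probe, SERPINE3, SERPINB5 and the brighter SERPINI1 probe were lower only on the normalized scale. SERPINB4, SERPINA4 and the dimmer SERPINI1 probe were lower only on the deposited intensities. The higher probe was of SERPINB9 on the normalized scale and of SERPINH1 on the deposited intensities.

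**Figure D1:**
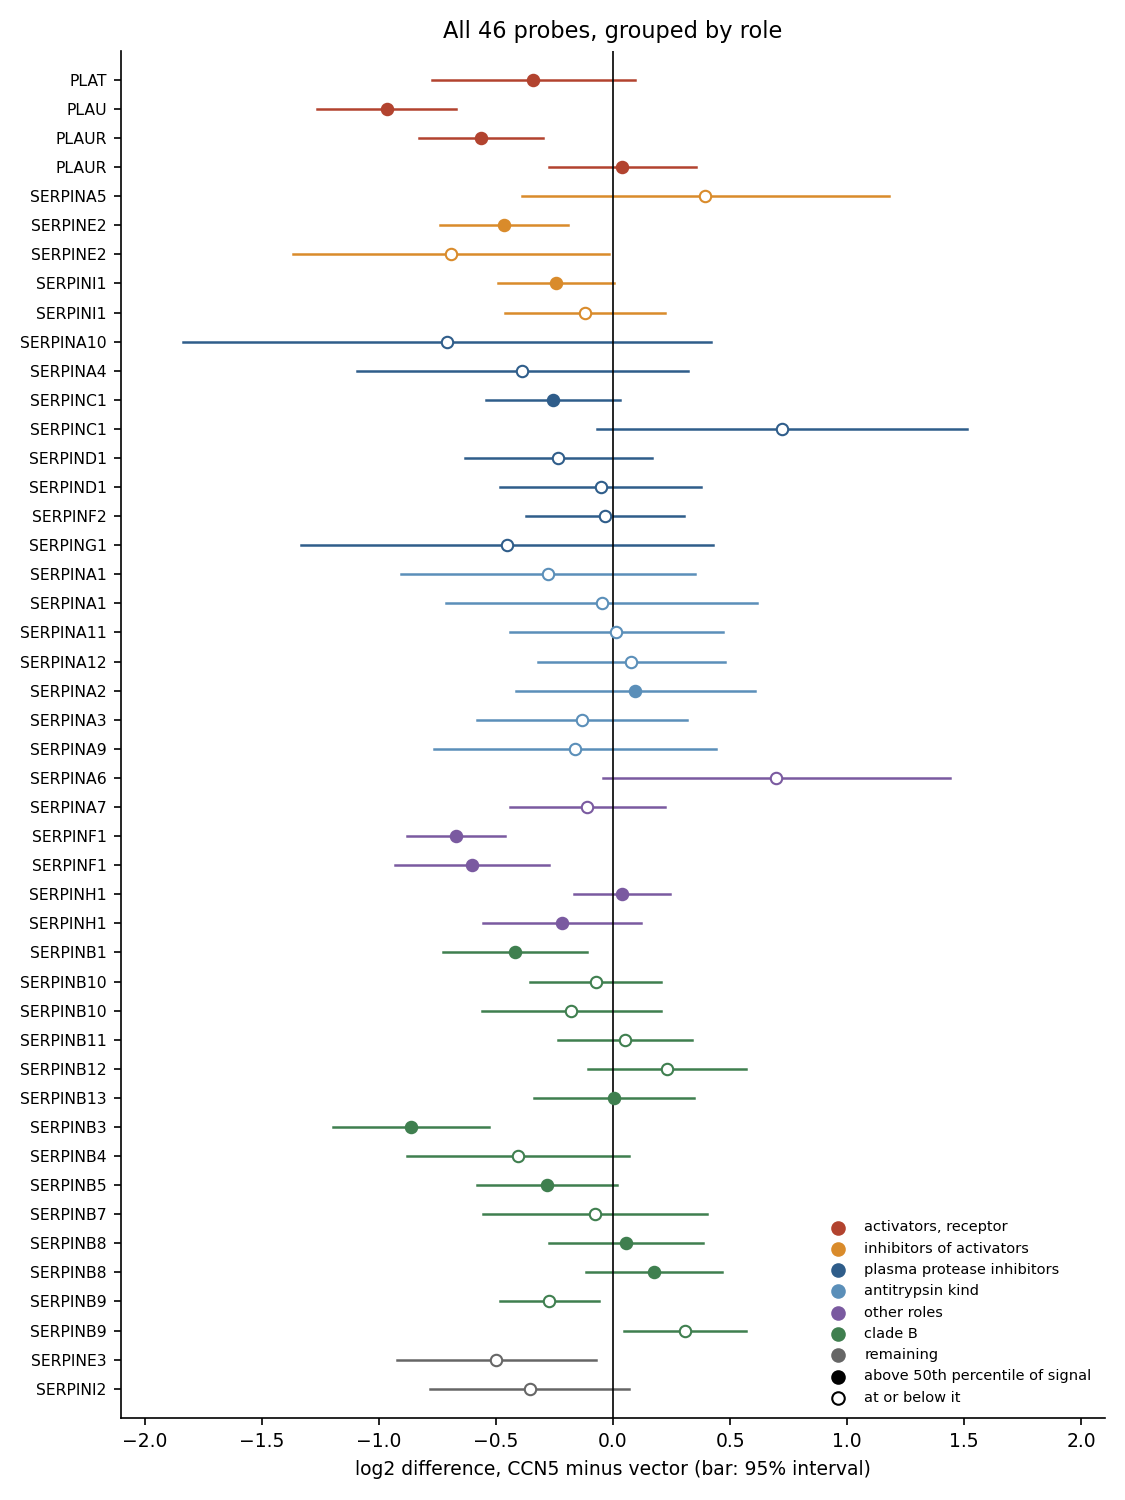
Log2 difference of all 46 probes, arrays labelled CCN5 minus arrays labelled vector (horizontal axis, normalized scale), in rows by gene and coloured by role, with 95% intervals from limma. Filled points mark probes above the 50th percentile of mean signal. PLAU lies farthest to the left among them at -0.97, and the widest intervals belong to open points.

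The calls differed between fits with and without the dim probes, and leaving them out also changes the spread that limma shares across probes. Of the 46 probes, 18 lay above the 50th percentile of mean normalized signal over all arrays, and they belonged to 14 genes. When the dimmest 50% of all probes were left out, 6 of these 18 (33.3%) passed an adjusted limma p of 0.05 as lower, against 4.01% of the 14132 probes tested. None passed as higher, against 3.06%. The 6 were the probe of PLAU, both probes of SERPINF1, the probe of SERPINB3, and the brighter probes of PLAUR and SERPINE2. Leaving out single arrays in that fit, a step added after the data were seen, gave 0 member calls without CCN5 replicate 3, where 0% of all probes tested were called lower, and 0 without vector replicate 2, against 0.0142%. It gave 3 of 18 (16.7%) without vector replicate 1, against 0.913%, and 3 (16.7%) without vector replicate 3, against 0.545%. It gave 5 (27.8%) without CCN5 replicate 1, against 2.09%, and 8 (44.4%) without CCN5 replicate 2, against 8.56%. Whether replicates were separate cultures is not stated in the labels, so the p-values reflect array-to-array spread that may be technical. Precision is limited by having 3 arrays a group.

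The single CCN5 probe went against the labels. It read an intensity of 655 ± 30.7 in the arrays labelled CCN5 and 851 ± 25.7 in those labelled vector (SD, n = 3 each), a log2 difference of -0.34 (SE 0.09). Limma's adjusted p was 0.151, and the exact two-sided permutation p was 0.1, the smallest that 3 arrays against 3 allow. Where this probe lies in relation to the transfected insert was not stated, so every direction in these results rests on the labels alone. The markers of the labelled cell type were dim as well. Of 18 measured hepatocyte and hepatoma markers 16 lay at or below the 50th percentile of signal, with albumin (ALB) at percentile 12.2 and alpha-fetoprotein (AFP) at percentile 26.7, although none read under 1. Of 14 measured squamous markers 2 lay at or below that level, and KRT5 stood at percentile 98.4. The summed signal of the squamous list was 240470 to 246722 in the arrays labelled CCN5 and 236209 to 255119 in those labelled vector. At an unadjusted limma p under 0.05, 4 of the 14 were lower and 0 higher. The shares over the brightest probe of each named gene were 11.2% and 8.58%. KRT14 gave -0.62, while the very bright KRT5 gave 0.40 (SE 0.17). Of 8 general epithelial markers 6 were below 0 and 4 lower at that threshold, among them CLDN4 at -0.76 and KRT19 at -0.46, with summed intensities of 109676 to 121018 with the CCN5 label and 118623 to 132190 with the vector label. The 11 measured leukocyte markers all had a difference below 0, with a median of -0.34. Of all 19090 named genes, each read by its brightest probe, 9916 were below 0. The summed intensities of the leukocyte list were 8993 to 11206 with the CCN5 label and 13006 to 13573 with the vector label. Its brightest probes were CD3D (mean 3923 against 4778 with the vector label, groups overlapping) and CD68 (3326 against 4437). A second CD3D probe was dim, at percentile 7.73 of signal. Of the 11 leukocyte markers 8 lay at or below the 50th percentile of signal. None of the 11 leukocyte markers read under 1, although the pan-leukocyte gene PTPRC was dim (percentile 15.1). At the same unadjusted limma threshold 3 of them were lower and 0 higher. Of 12 fibroblast markers, 9 of them at or below the 50th percentile, 4 were lower and 1 higher. Of 8 endothelial markers 1 was lower and 0 higher, and of the 18 hepatocyte markers 3 were lower and 0 higher. The part of any of these markers in the results was not tested.

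PLAU, the gene of urokinase, had the most negative difference of the 46 probes. Its intensity was 4104, 5200 and 4161 in the arrays labelled CCN5, against 8170, 9382 and 8551 in the arrays labelled vector. The groups lay far apart, with the brightest CCN5 array well under the dimmest vector array. The means were 4488 ± 617 with the CCN5 label and 8701 ± 620 with the vector label (SD, n = 3 each). The log2 difference was -0.97 (SE 0.12, 95% interval -1.26 to -0.67), a 1.96-fold lower normalized signal, with a limma adjusted p of 0.0969 over all probes and 0.0117 without the dimmest 50%. In a culture such as this, fewer cells that express a gene and less RNA per cell cannot be told apart.

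PLAUR, the surface receptor of urokinase, was read by a pair of probes that differed. The brighter probe gave 4185, 3963 and 3274 with the CCN5 label, against 5853, 5579 and 5388 with the vector label. All CCN5 arrays were below all vector arrays, with a log2 difference of -0.56 (SE 0.11, 1.48-fold) and a limma adjusted p of 0.113 over all probes and 0.0244 without the dimmest 50%. The dimmer probe gave 1368, 1178 and 1550 with the CCN5 label, against 1246, 1409 and 1389 with the vector label. Here the CCN5 arrays spanned the whole range of the vector arrays, and the difference was 0.04 (SE 0.13, limma adjusted p 0.896). PLAT, the activator best known for dissolving clots, read 1064, 646 and 767 with the CCN5 label, against 855, 1114 and 1211 with the vector label. CCN5 replicate 1 lay within the vector arrays and the other CCN5 arrays below them, and the difference of -0.34 (SE 0.18) had a limma adjusted p of 0.358.

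**Figure D2:**
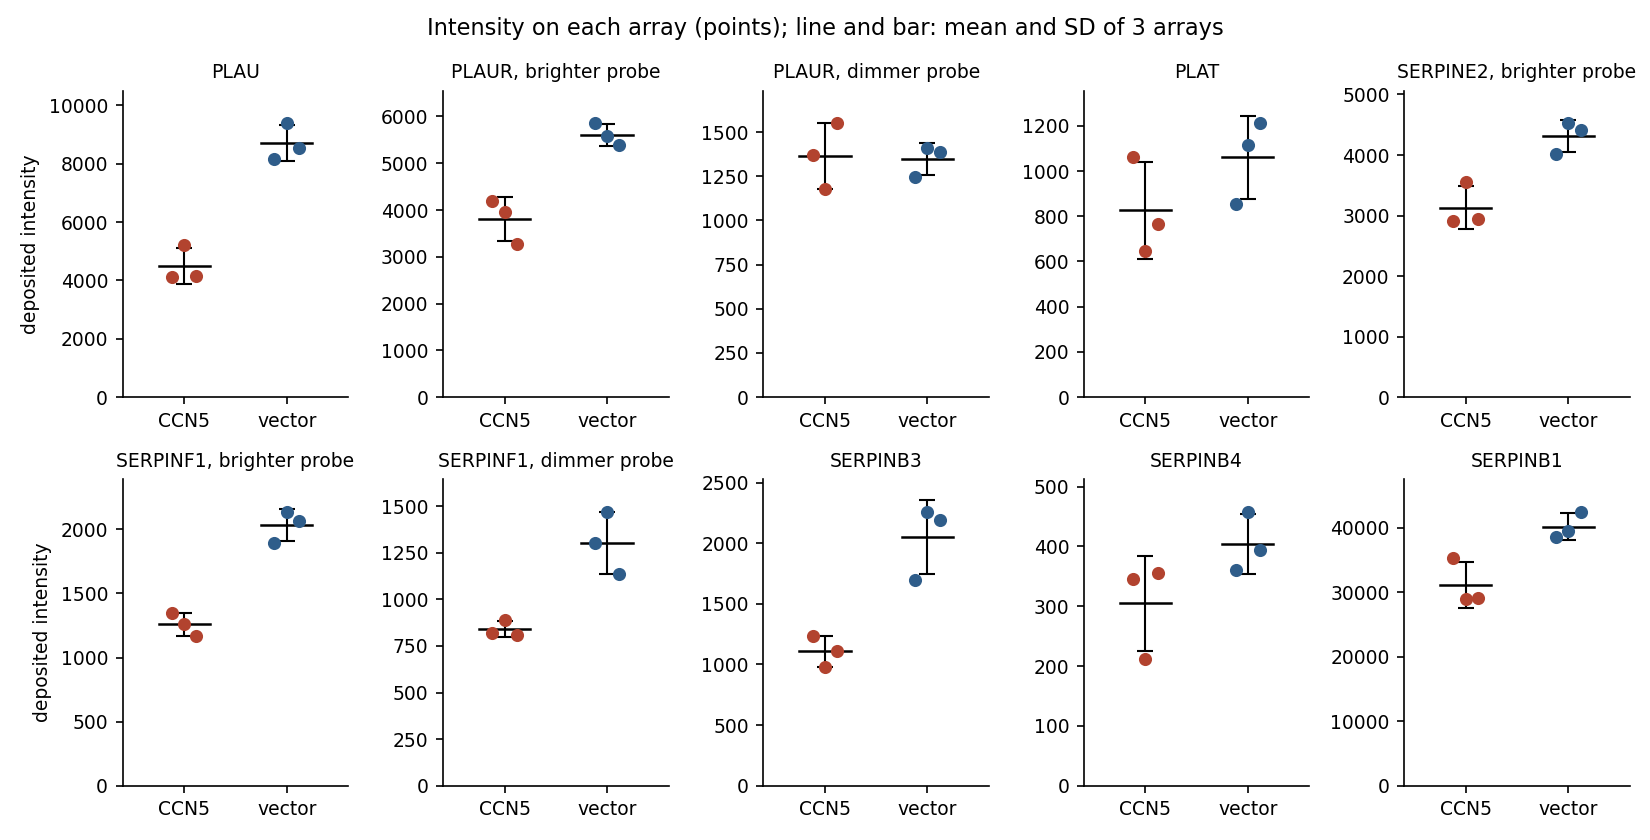
Deposited intensity (vertical axes, linear and starting at 0) on each array for 10 member probes, arrays labelled CCN5 at the left and arrays labelled vector at the right of each panel. Points are arrays, the long line is the mean and the bar the SD of 3 arrays. The groups are separate for PLAU, both SERPINF1 probes, SERPINB3, SERPINB1 and the brighter PLAUR and SERPINE2 probes, and overlap for PLAT and the dimmer PLAUR probe.

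Because PLAU and the brighter PLAUR probe were low in the same arrays, the start regions of both genes are shown. They are the 250 bases before an annotated transcription start, from RefSeq on GRCh38.p14, given 5′ to 3′ on the gene's strand. The table holds a pair of windows for PLAU, and the one shown lies at chr10:73910882-73911131 (plus strand). The other, at chr10:73910360-73910609, holds none of the motifs searched. The table gives the PLAUR window at chr19:43670170-43670419 (minus strand). Capitals mark GC boxes (GGGCGG) in PLAU and an AP-1 site (TGANTCA) in PLAUR, searched on both strands.
PLAU: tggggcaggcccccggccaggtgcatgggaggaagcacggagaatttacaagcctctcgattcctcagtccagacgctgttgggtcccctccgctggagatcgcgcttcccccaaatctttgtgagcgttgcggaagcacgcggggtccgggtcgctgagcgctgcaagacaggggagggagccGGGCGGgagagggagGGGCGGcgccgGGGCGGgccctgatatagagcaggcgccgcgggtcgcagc
PLAUR: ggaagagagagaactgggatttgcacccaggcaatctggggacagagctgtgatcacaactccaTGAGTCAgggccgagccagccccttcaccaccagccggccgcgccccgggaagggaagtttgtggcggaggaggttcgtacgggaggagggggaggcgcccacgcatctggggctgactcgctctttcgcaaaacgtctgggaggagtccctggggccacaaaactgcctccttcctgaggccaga
The 3 GC boxes of the PLAU window shown begin 66, 51 and 40 bases before the start, and the AP-1 match of PLAUR begins 186 bases before it. A GC box stood in 42.6% and an AP-1 match in 6.57% of all 35116 windows of the table. Windows were found for 27 of the 35 member genes, 39 in all, of which 10 held a GC box and 9 an AP-1 match. The AP-1 matches lay in PLAUR, SERPINB5, SERPINB7, SERPINB8, SERPINB12, SERPINB13, SERPINE3 and SERPINI2, with differences from -0.50 in SERPINE3 to 0.23 in SERPINB12 among those other than PLAUR. A match of letters is a description and not a binding site.

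Among the serpins that inhibit plasminogen activators, SERPINE2 (protease nexin-1, an inhibitor of thrombin, urokinase and plasmin) was lower beside PLAU. Its brighter probe read 2903, 3550 and 2945 in the arrays labelled CCN5, against 4020, 4523 and 4416 in those labelled vector. No array of one label reached those of the other, the difference was -0.46 (SE 0.11, 1.38-fold), and limma's adjusted p was 0.141 over all probes and 0.0411 without the dimmest 50%. Its other probe lay at percentile 8.71 of signal and read 40.6, 32.1 and 49.6 with the CCN5 label, against 8.97, 73.7 and 65.0 with the vector label. Vector replicate 1 was the lowest and the remaining vector arrays the highest of the 6, so the groups overlapped. The fitted difference of -0.69 (SE 0.28, limma adjusted p 0.253) became 0.20 on the deposited log2 scale. SERPINA5, the protein C inhibitor, was dim (percentile 23.2) and read 145, 109 and 126 with the CCN5 label, against 101, 72.7 and 137 with the vector label. CCN5 replicates 2 and 3 lay within the range of the vector arrays and replicate 1 above it, with a difference of 0.39 (SE 0.33, limma adjusted p 0.551). SERPINI1, neuroserpin, inhibits tissue-type activator in neurons. Its brighter probe read 650, 493 and 461 with the CCN5 label, against 608, 628 and 709 with the vector label, a difference of -0.24 (SE 0.10, limma adjusted p 0.271). Its other probe read 328, 353 and 344 with the CCN5 label, against 372, 416 and 356 with the vector label, a difference of -0.12 (SE 0.14, limma adjusted p 0.682). CCN5 replicate 1 lay among the vector arrays on the brighter probe, and on the other all CCN5 intensities were below the vector intensities.

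The genes around the cascade were read from a list of plasminogen, its receptors, and the partners of urokinase and its receptor. Of 25 genes, all measured and each read by its brightest probe, 17 were below 0 and 8 above, with a median of -0.21. Read the same way, 9916 of all 19090 named genes were below 0, with a median of -0.011. None of the 25 passed limma's adjusted p. At an unadjusted limma p under 0.05, 5 were lower and 2 higher, against 11.2% and 8.58% of all named genes. MRC2, a collagen receptor that binds the urokinase receptor, read 273, 305 and 284 with the CCN5 label, against 448, 594 and 464 with the vector label. The groups were separate, with a difference of -0.76 (SE 0.16, 1.70-fold, limma adjusted p 0.129). S100A10, a surface receptor of plasminogen with annexin A2, was among the brightest probes and read 55875, 62203 and 58238 with the CCN5 label, against 71487, 68574 and 67708 with the vector label. That separation was small, with a difference of -0.30 (SE 0.08, limma adjusted p 0.154). HGFAC, the activator of hepatocyte growth factor, gave -0.29 (SE 0.09) at percentile 25.4 of signal. KLKB1, plasma prekallikrein, gave 0.46 (SE 0.11) at percentile 13.5. The deposited intensities of HGFAC and KLKB1 overlapped between the labels. Plasminogen itself (PLG), made by hepatocytes, was dim (percentile 14.8) and gave -0.24 (SE 0.14, limma adjusted p 0.416), while its still dimmer probes gave 0.09 (SE 0.36) and 0.12 (SE 0.16).

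SERPINF1 encodes pigment epithelium-derived factor, a secreted serpin that inhibits no protease and is known to restrain blood vessel growth. Its brighter probe read 1346, 1262 and 1169 in the arrays labelled CCN5, against 1896, 2136 and 2069 in those labelled vector. The means were 1259 ± 89.0 with the CCN5 label and 2034 ± 124 with the vector label (SD, n = 3 each). The groups were well separated, with a difference of -0.67 (SE 0.09, 1.59-fold) and a limma adjusted p of 0.0969 over all probes and 0.0117 without the dimmest 50%. The second probe read 821, 888 and 809 with the CCN5 label, against 1304, 1470 and 1137 with the vector label. It too was separate, with a difference of -0.60 (SE 0.14) and a limma adjusted p of 0.0343 without the dimmest 50%. SERPINF1 was the gene whose pair of probes both passed in that fit.

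SERPINB3 and SERPINB4 are neighbouring clade B genes on chromosome 18, named squamous cell carcinoma antigens after the tumours in which the proteins were found. SERPINB3 inhibits cysteine proteases such as cathepsin L, and SERPINB4 serine proteases such as cathepsin G. The SERPINB3 probe read 1231, 978 and 1114 in the arrays labelled CCN5, against 1700, 2259 and 2194 in those labelled vector. The groups were separate, with means of 1108 ± 127 with the CCN5 label and 2051 ± 306 with the vector label (SD, n = 3 each). The difference was -0.86 (SE 0.14, 1.82-fold), with a limma adjusted p of 0.106 over all probes and 0.0161 without the dimmest 50%. SERPINB4 was dimmer (percentile 42.5) and read 345, 212 and 356 with the CCN5 label, against 361, 458 and 394 with the vector label. All CCN5 intensities were below the vector intensities, replicates 1 and 3 only just, the normalized values overlapped, and the difference of -0.41 (SE 0.20) had a limma adjusted p of 0.321. These near-identical genes may share signal on either probe, and whether the probes tell them apart was not tested.

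The start regions of the pair are shown because so few bases separate them. Both are the 250 bases before the annotated start, from RefSeq on GRCh38.p14, 5′ to 3′ on the minus strand, at chr18:63661894-63662143 for SERPINB3 and chr18:63644257-63644506 for SERPINB4. Capitals mark the bases that differ.
SERPINB3: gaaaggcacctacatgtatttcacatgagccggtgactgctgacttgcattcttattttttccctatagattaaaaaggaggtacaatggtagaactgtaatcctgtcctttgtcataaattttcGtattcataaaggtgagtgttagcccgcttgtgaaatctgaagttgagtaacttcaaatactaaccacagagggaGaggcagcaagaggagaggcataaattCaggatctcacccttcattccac
SERPINB4: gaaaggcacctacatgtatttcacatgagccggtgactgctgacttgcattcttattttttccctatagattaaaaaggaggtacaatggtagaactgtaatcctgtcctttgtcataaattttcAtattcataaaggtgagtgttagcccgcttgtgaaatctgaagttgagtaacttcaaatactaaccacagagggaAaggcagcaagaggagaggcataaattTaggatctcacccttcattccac
The windows differ at 3 of 250 bases, 125, 50 and 23 bases before the start, and are 98.8% identical. Neither holds an AP-1 match, a GC box, a TATA box (TATAAA), an E box (CACGTG) or an ETS match (CCGGAAG).

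None of the other clade B serpins, which mostly act inside cells, passed limma's adjusted p over all probes. SERPINB1, SERPINB5, SERPINB8 and SERPINB13 did not pass without the dimmest 50% either. The rest of them were too dim to be tested in that fit. SERPINB1, an inhibitor of neutrophil elastase and cathepsin G, was among the brightest members (percentile 97.5) and read 35330, 28930 and 29190 with the CCN5 label, against 38547, 39503 and 42502 with the vector label. Every CCN5 array was below every vector array, with a difference of -0.42 (SE 0.13, 1.34-fold) and a limma adjusted p of 0.178 over all probes and 0.0632 without the dimmest 50%. SERPINB5 (maspin, known as a tumour suppressor of breast epithelium) was as bright and read 24896, 33945 and 26772 with the CCN5 label, against 34063, 32196 and 34326 with the vector label. CCN5 replicate 2 lay among the vector arrays, although the normalized groups were separate, and the difference was -0.28 (SE 0.12, limma adjusted p 0.284). SERPINB9, the inhibitor of granzyme B, gave opposite signs on its dim probes. The first read 156, 118 and 124 with the CCN5 label, against 119, 183 and 174 with the vector label, a normalized difference of -0.27 (SE 0.09). The second read 135, 89.7 and 102 with the CCN5 label, against 64.8, 99.8 and 91.0 with the vector label, a difference of 0.31 (SE 0.11). Both sets of intensities overlapped, although their unadjusted limma p were 0.0195 and 0.0276, and the second probe was the only member higher at that threshold. The 14 clade B probes had a median of -0.08, and the 11 of them on chromosome 18 had -0.07. The furin inhibitor SERPINB8 (0.06 and 0.18) and SERPINB13 (0.00) lay above the 50th percentile of signal and near 0.

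The serpins that hepatocytes secrete into plasma were mostly dim, and none of them passed limma's adjusted p. SERPINA1, antitrypsin, read 328, 436 and 355 with the CCN5 label, against 494, 576 and 345 with the vector label. The groups overlapped through vector replicate 3, and the difference of -0.28 (SE 0.26) had a limma adjusted p of 0.600. A dimmer SERPINA1 probe (percentile 10.3) gave -0.05 (SE 0.28). SERPINA3, antichymotrypsin, read 85.5, 53.8 and 94.3 with the CCN5 label, against 49.8, 96.0 and 94.7 with the vector label. Each group held both high and low arrays, and the difference was -0.13 (SE 0.19, limma adjusted p 0.739).

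SERPINC1, antithrombin, was the brightest of them (percentile 73.4) and read 2135, 2407 and 1755 with the CCN5 label, against 2555, 2482 and 2485 with the vector label. The CCN5 arrays were lower and more spread, with 2099 ± 327, against 2507 ± 41.3 with the vector label (SD, n = 3 each). The difference was -0.26 (SE 0.12, limma adjusted p 0.305). A dim SERPINC1 probe (percentile 9.09) read 51.5, 51.0 and 61.6 with the CCN5 label, against 4.98, 47.6 and 56.6 with the vector label. Vector replicate 1 was far below the other 5 arrays, and the fitted difference was 0.72 (SE 0.33). SERPINF2, the plasmin inhibitor antiplasmin, read 346, 212 and 249 with the CCN5 label, against 272, 297 and 266 with the vector label. The CCN5 arrays lay on both sides of the vector arrays, with a difference of -0.03 (SE 0.14, limma adjusted p 0.922). SERPING1, the inhibitor of complement C1 proteases, gave -0.45 (SE 0.37), SERPIND1 (heparin cofactor II) -0.23 and -0.05, SERPINA4 (kallistatin) -0.39 and SERPINA10 (the protein Z-dependent inhibitor) -0.71 at percentile 7.58. The 11 member probes on chromosome 14, where the antitrypsin gene cluster lies, had a median of -0.05.

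Of 33 proteases known as targets of serpins, all measured, 25 were below 0, with a median of -0.11. By their brightest probe, 9916 of all 19090 named genes were below 0. None of the 33 passed limma's adjusted p over all probes. At an unadjusted limma p under 0.05, 3 were lower and 2 higher, against 11.2% and 8.58% of all named genes. KLK8, a secreted kallikrein of skin and brain, read 3723, 3416 and 3557 with the CCN5 label, against 5529, 6715 and 6860 with the vector label. The groups were far apart, with a difference of -0.83 (SE 0.12, 1.78-fold, limma adjusted p 0.0969), and KLK11, another kallikrein, gave -0.29 (SE 0.10). MASP1, a protease of the complement lectin pathway, read 1115, 858 and 851 with the CCN5 label, against 566, 228 and 457 with the vector label. Its groups were separate in the other direction, with a difference of 1.32 (SE 0.36, limma adjusted p 0.154), but its other probes gave 0.20 (SE 0.17) and -0.34 (SE 0.21). ELANE, neutrophil elastase, gave 0.39 (SE 0.12, limma adjusted p 0.173).

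SERPINH1 (HSP47) is a chaperone of procollagen in the endoplasmic reticulum and was bright on both probes. The brighter one read 46629, 49528 and 52740 with the CCN5 label, against 45627, 45883 and 46547 with the vector label. All CCN5 intensities lay just above the vector intensities, but the normalized values overlapped, with a difference of 0.04 (SE 0.09). The second read 26254, 32389 and 22884 with the CCN5 label, against 32188, 29003 and 30710 with the vector label, overlapping with a difference of -0.22 (SE 0.14). Of 17 genes for collagen folding and modification 16 were measured, of which 11 were below 0, with a median of -0.10, and none passed limma's adjusted p. At an unadjusted limma p under 0.05, 2 were lower and 2 higher, against 11.2% and 8.58% of all named genes. Of all 19090 named genes, read by their brightest probe, 9916 were below 0. P4HA2, a catalytic subunit of prolyl 4-hydroxylase, read 5176, 5875 and 4969 with the CCN5 label, against 8107, 9110 and 8896 with the vector label. The groups were far apart, with a difference of -0.73 (SE 0.10, 1.65-fold, limma adjusted p 0.0969). The lysyl hydroxylase PLOD1 gave -0.26 (SE 0.11), the prolyl isomerase FKBP14 0.28 (SE 0.10) and the prolyl hydroxylase P3H2 0.25 (SE 0.10). P3H2 was dim (percentile 27.5), and the deposited intensities of FKBP14 and P3H2 overlapped between the labels.

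SERPINE3, the last gene with an unadjusted p under 0.05 (0.0286), was dim and read 103, 117 and 82.4 with the CCN5 label, against 99.7, 157 and 155 with the vector label. The CCN5 arrays bracketed vector replicate 1 on the deposited scale, and the normalized difference was -0.50 (SE 0.18, limma adjusted p 0.214). The hormone carrier SERPINA6 (corticosteroid-binding globulin) was dim (percentile 18.7) and gave 0.70 (SE 0.31, limma adjusted p 0.284), with overlapping groups. The hormone carrier SERPINA7 (thyroxine-binding globulin) gave -0.11 (SE 0.14). The members not described so far, SERPINA2, SERPINA9, SERPINA11, SERPINA12, SERPINB7, SERPINB10, SERPINB11, SERPINB12 and SERPINI2, had differences between -0.36 for SERPINI2 and 0.23 for SERPINB12.

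Probes of one gene did not always read alike. Of the 11 genes with a pair of probes, 7 had the same sign on both and 4 had opposite signs: PLAUR, SERPINB9, SERPINC1 and SERPINH1. Of these 4, PLAUR (-0.56 and 0.04) and SERPINH1 (0.04 and -0.22) had both probes above the 50th percentile of signal, while SERPINC1 paired a bright probe with one near the bottom of the scale. The transcript forms that each probe reads were not stated.

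**Figure D3:**
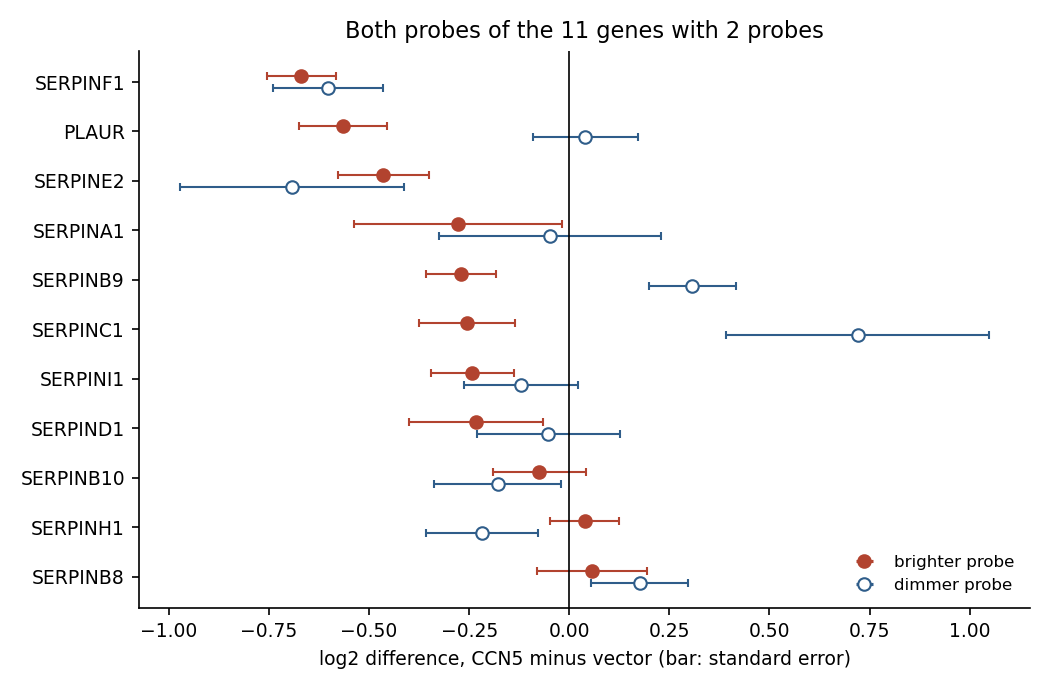
Log2 difference, arrays labelled CCN5 minus arrays labelled vector (horizontal axis, normalized scale), of both probes of the 11 genes with a pair. Filled points are the brighter and open points the dimmer probe, and bars are standard errors from limma. Both SERPINF1 probes lie near -0.6, while the PLAUR probes lie at -0.56 and 0.04.

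The bright members had the lower median. The 18 member probes above the 50th percentile had a median of -0.27, against -0.0027 for all probes of that range, and the 28 at or below it had -0.12, against -0.0067. Of the 46 probes 16 lay at or below the 25th percentile, and none had a value under 1 on any array. CCN5 replicates 1 and 2 had 12 and 6 probes below 0, against 1330 on vector replicate 1, which stood apart in the dim range. Vector replicate 1 also gave the lowest reading for the dim probes of SERPINE2, SERPINC1 and SERPINA10.

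**Figure D4:**
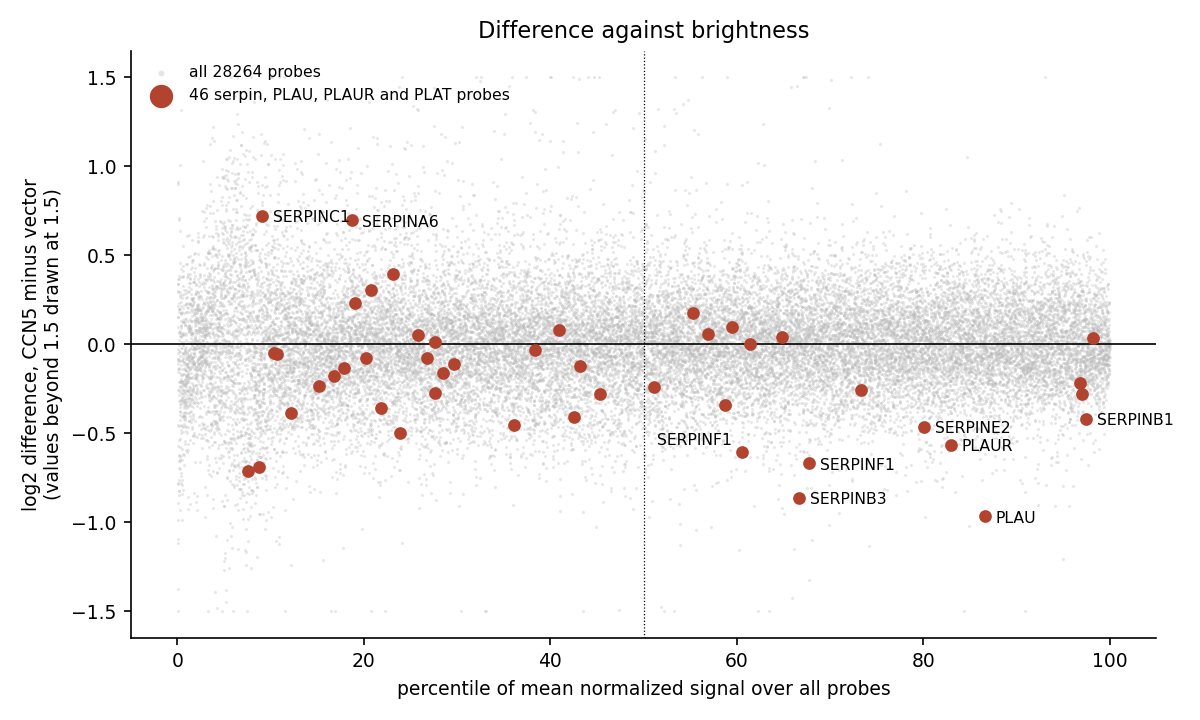
Log2 difference, arrays labelled CCN5 minus arrays labelled vector (vertical axis, normalized scale), against the percentile of mean normalized signal (horizontal axis) for the 46 member probes (large points) and all 28264 probes (small points). The dotted line marks the 50th percentile. PLAU, SERPINB3, the brighter PLAUR and SERPINE2 probes and both SERPINF1 probes lie low on the bright side. The dim SERPINC1 probe and SERPINA6 lie high on the dim side.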

How the data were processed

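The authors deposited linear intensities, 1 value for each probe on each array. Per the labels' protocols, total RNA was primed with T7 oligo(dT), and amplified antisense RNA carried the Cy3 dye, which weights signal toward 3' ends. Scanner, background correction and between-array scaling were not stated in the labels. Array medians of 504 to 600 and upper quartiles of 2486 to 2618 show that the values were not quantile normalized.

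Intensities under 1 were set to 1 (5.35% of probes on vector replicate 1), and log2 values were quantile normalized. All 28264 probes were fitted with limma 3.58.1 (lmFit, eBayes, no trend) in R 4.3.3, two-sided, all 6 arrays, no covariates, with p-values adjusted over all probes (Benjamini-Hochberg) and called at 0.05. The fit was also run on simulated data, with changes of 1 log2 unit or more planted only in probes above the 50th percentile of signal. Values were drawn independently for each array. How well the fit finds smaller changes or changes in dim probes was not tested, nor was an array that stands apart. An exact permutation test was added for CCN5 (scipy 1.17.1). Of the probes, 25893 carried a gene symbol in the platform table.

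Members, gene lists and tests were chosen with earlier results of these data known. Named with every array were PLAU, PLAUR, PLAT, SERPINE2 and SERPINA5, members with an unadjusted p under 0.05, and SERPINA1, SERPINA3, SERPINC1 and SERPINF2. SERPINB4, SERPINB5, SERPINH1 and SERPINI1 were added after their values were seen, as were PLG and the marker genes. Of each pathway list at most 4 genes were named by smallest p. A further pathway list is not reported here. Replicate numbers were checked for pairing: deviations of same-numbered arrays correlated across probes at -0.14, 0.12 and 0.02, so no pairing was used.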

Additional observations from a re-analysis of the deposited data

How the results depend on the processing

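Of 20 named member probes 14 kept their sign under every alternative that tested them, of 15. Several of these alternatives could not turn a sign. Leaving out dim probes, the trended and robust variance, the replicate block and 1 probe per gene change the p-value but not a probe's difference. Only the other scalings, the array weights and the fits with an array left out bear on the sign. PLAU lay between -1.07 and -0.90 and the brighter probes of SERPINF1, PLAUR and SERPINE2 and the probe of SERPINB3 also stayed below 0, with adjusted p for PLAU of 0.0117 to 0.394. The 6 that turned were dim probes or near 0. On the deposited log2 scale and with median centring, the dim SERPINE2 probe became 0.20 and 0.24, and the dim SERPINA1 probe 0.51 and 0.56, while SERPINA3 became 0.024 with median centring. Leaving out single arrays moved the dim SERPINA1 probe between -0.22 and 0.19, SERPINA3 between -0.33 and 0.045, SERPINA5 between -0.0016 and 0.58, SERPINF2 between -0.13 and 0.083 and the dimmer PLAUR probe between -0.080 and 0.13.

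Members past an adjusted p of 0.05 as lower numbered 3 with log2(value + 50) (0.796% of all probes), 3 without the dimmest 25% (0.712%), 6 without the dimmest 50% (4.01%) and 4 with a trended and robust variance (1.19%), against 0 with all probes, and 0 with each array left out. Without the dimmest 50%, leaving out single arrays gave 0 to 8. The CCN5 probe passed as lower there, at -0.34 (adjusted p 0.0486). The collagen list then had 1 call under each of these 4 settings and the proteases 1, 1, 2 and 1. Members higher at an unadjusted p numbered 0 on the deposited scale (6.22% of all probes), with median centring (6.03%), without the dimmest 25% (11.2%) and 50% (13.9%) and with 1 probe per gene (8.99%), 2 with log2(value + 50) (9.73%), 3 with the replicate block (6.73%) and 0 to 2 with single arrays left out (4.96% to 9.66%), against 1. The member higher in the main fit was the dimmer SERPINB9 probe. It was not among the probes tested without the dimmest 25% or 50% or with 1 probe per gene, so those fits could not call it. The replicate block left 0 adjusted calls.

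The member median of -0.17 was -0.067 on the deposited scale (all probes 0.034), -0.023 with median centring (all probes 0.078), -0.11 with log2(value + 50), -0.23 and -0.27 without the dimmest 25% and 50%, -0.24 with 1 probe per gene and -0.20 to -0.16 with single arrays left out. The cause of these shifts was not tested. The background level of the scanner is unknown, which limits what dim probes can show.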
